A study of Mus musculus with 68 samples.

Results

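The genes described here encode the nuclear pore and the receptors that carry cargo through it: nucleoporins (Nup), importins (Kpna, Kpnb and Ipo) and exportins (Xpo). They were taken by symbol, as every gene symbol of the raw count tables that begins with Nup, Kpna, Kpnb, Ipo or Xpo followed by a digit, or with Xpot, leaving out pseudogenes. Of 24059 symbols, 42 met this rule: 22 nucleoporins, 14 importins and 6 exportins. Among them Kpna7, Nup62-il4i1 and Nup62cl lay below 1 CPM (counts per 1000000 counts of the library) in every group, so 39 members carry the values that follow.

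The nuclear pore is a ring-shaped assembly set into the nuclear envelope, and nearly all protein and RNA passes through it. Importins bind cargo in the cytoplasm and release it in the nucleus when they meet the small GTPase Ran bound to GTP, and exportins bind cargo in the nucleus together with Ran-GTP and release it in the cytoplasm. In the mammalian erythroid line the nucleus condenses and is finally expelled, and in mouse erythroblasts the exportin Xpo7 is known to be needed for that condensation and for enucleation.

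Mouse bone marrow erythroid cells were separated by flow cytometry, and their total RNA was sequenced in 68 libraries. In a stage series of 38 libraries, for which the labels give neither genotype nor age, there were 3 libraries of BFU-E, 5 of CFU-E, 7 of ERY-I (ProE in the labels), 4 of ERY-II (BasoE), 4 of ERY-III (PolyE), 4 of ERY-IV (OrthoE), 7 of ERY-V (Retic) and 4 of ERY-VI (RBC). A knockout series of 30 libraries held 3 GS-KO and 3 WT libraries in each of the gates BFU-E, CFU-E, ERY-I-II (ProE and BasoE), ERY-III-VI (PolyE and OrthoE) and ERY-V-VI (Retic and RBC). The labels do not spell out GS, the allele, the Cre driver, the strain or the age of the animals, and do not say whether libraries with different numbers came from different animals, so that p-values measure the spread between these libraries, which may be technical.

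Promoters of 32 members were found in the RefSeq table of mouse build GRCm38.p6, each spanning 250 bases before and 50 after the start of transcription. Xpo7 and Kpna1 had no promoter there. Printed as examples are 3 of the 32: 2 importin alpha adaptors, Kpna2 and Kpna4, and a central channel nucleoporin, Nup54. All 3 genes lie on the minus strand, and each sequence runs 5′ to 3′ along that strand. Capitals mark matches, on either strand, to CCAAT (a box known by these letters), CCGGAAG (ETS), TTTGAA or TTTAAA (the cell cycle element called CHR), TTTCCCGC, TTTCGCGC, TTTGCCGC or TTTGGCGC (E2F), GCGC with any base and then TGCGC after it (NRF1), and to the GATA words AGATAA or AGATAG and also TGATAA or TGATAG.
Kpna2, chr11:106999476-106999775: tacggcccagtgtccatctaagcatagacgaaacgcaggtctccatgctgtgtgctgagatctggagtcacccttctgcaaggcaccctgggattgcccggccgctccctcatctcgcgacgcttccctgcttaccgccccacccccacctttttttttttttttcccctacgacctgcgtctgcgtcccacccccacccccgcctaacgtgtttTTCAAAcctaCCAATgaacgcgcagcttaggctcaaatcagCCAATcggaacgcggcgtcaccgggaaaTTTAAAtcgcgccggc
Kpna4, chr3:69127043-69127342: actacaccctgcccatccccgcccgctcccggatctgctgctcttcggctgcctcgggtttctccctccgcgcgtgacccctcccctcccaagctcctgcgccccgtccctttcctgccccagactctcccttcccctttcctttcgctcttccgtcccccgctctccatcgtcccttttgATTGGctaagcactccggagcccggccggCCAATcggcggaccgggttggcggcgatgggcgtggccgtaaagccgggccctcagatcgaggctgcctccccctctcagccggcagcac
Nup54, chr5:92435150-92435449: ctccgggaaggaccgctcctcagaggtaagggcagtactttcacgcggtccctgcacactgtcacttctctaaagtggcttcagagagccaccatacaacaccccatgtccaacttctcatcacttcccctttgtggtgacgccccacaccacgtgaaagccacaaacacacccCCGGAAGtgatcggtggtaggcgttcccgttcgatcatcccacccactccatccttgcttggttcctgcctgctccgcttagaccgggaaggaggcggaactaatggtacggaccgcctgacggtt

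The printed Kpna2 and Kpna4 promoters each held 2 CCAAT boxes, the Kpna2 promoter also 2 CHR words, and the Nup54 promoter 1 ETS word. Over the 32 members with a promoter, 18 (56.2%) held a CCAAT box, against 37.4% of all 32851 promoters in the table. The ETS word was in 5 members (15.6%, against 8.86% of all promoters), CHR in 8 (25.0%, against 27.6%), GATA in 4 (12.5%, against 29.8%), E2F in 2 (6.25%, against 2.26%) and NRF1 in 5 (15.6%, against 4.60%). Both strands were searched, none of these words contains another, and a match says only that the letters stand in this window.

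Library totals were 1630863 to 11472763 counts for the stage series and 3131142 to 15806844 for the knockout series, and a library had a count for 19 to 41 members in the stage series and 37 to 40 in the knockout series. By their sex-linked transcripts the stage series held 2 sets of libraries: a Y-linked set of 12, which are replicates 1 to 3 of the groups BFU-E, CFU-E, ERY-I and also ERY-V, and a set of 26 with Xist. The 30 libraries of the knockout series were all Y-linked. The chi-square of the counts of replicate pairs per degree of freedom was 1.29 to 6.37 in the knockout series, 1.45 to 8.46 and 8.65 to 150 within the Y-linked and Xist sets of the stage series, and 78.1 to 283 across these sets, so that the ranges of the Xist set and of mixed pairs overlapped. Haemoglobin genes took on average 0.0188% of CFU-E counts, 28.9% of ERY-II counts and 64.0% of ERY-VI counts. Neutrophil marker genes summed to between 13805 and 14215 CPM in the 3 ERY-I libraries of the Y-linked set, against 0.409 to 1260 CPM in the other 4 ERY-I libraries. In bulk RNA such as this, fewer cells of a type and less RNA per cell cannot be told apart.

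**Figure D1:**
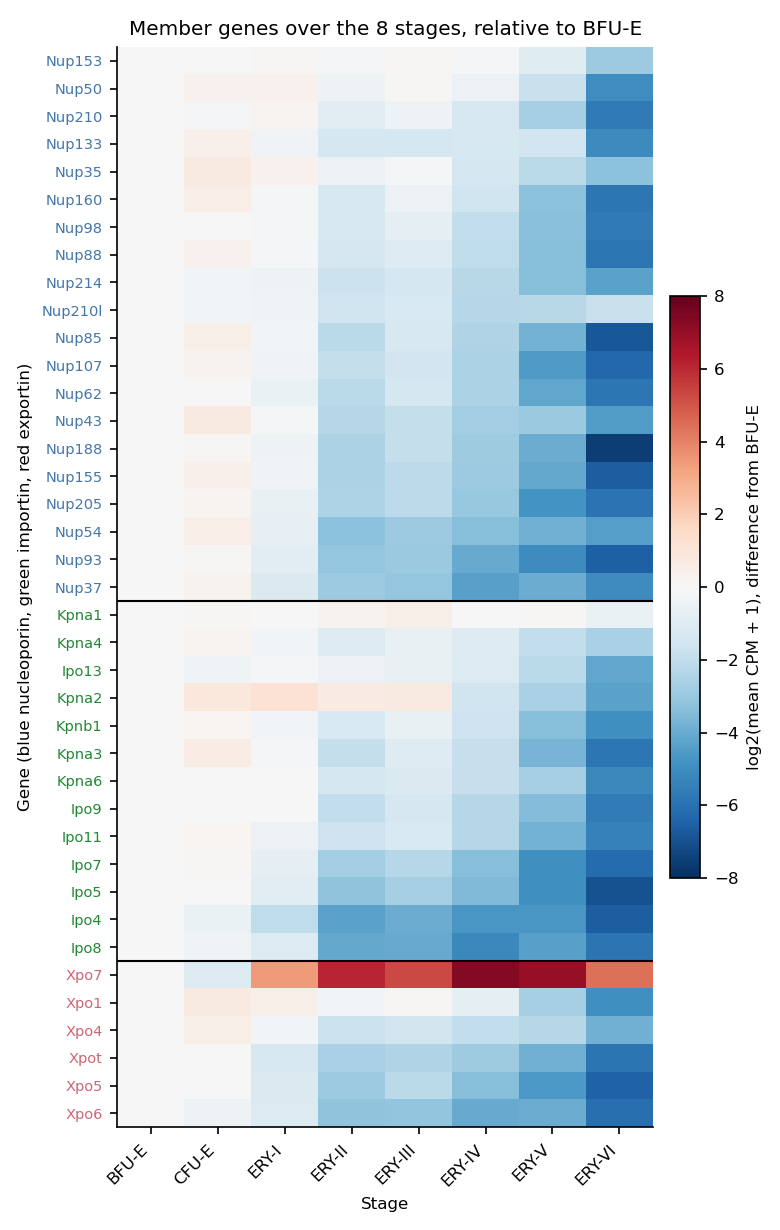
Level of each of the 39 members above 1 CPM in at least 1 group, in the 8 groups of the stage series from BFU-E (left) to ERY-VI (right), as the log2 difference of mean CPM + 1 from BFU-E. Xpo7 stands alone in the size of its gain from ERY-I on. Kpna2 and Nup210 are above their BFU-E level in ERY-I too (131 against 58.4 CPM, and 575 against 504 CPM). Kpna1 stays near its BFU-E level through ERY-V, and the other rows lie below their BFU-E level by ERY-IV.

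In CPM the pore and its receptors were most abundant in the earliest cells and dwindled across the stages, with Xpo7 as the exception. Much of this fall was shared by other genes. In the fits scaled by library totals, described below, the median log2 fold changes of members were -0.58, -1.54, 0.41, -0.94, -1.23 and -2.47 over the steps from CFU-E to ERY-VI. Those of all genes tested were -0.31, -1.67, 0.15, -0.63, -0.72 and -2.22. Without Xpo7 the members summed to means of 7573, 8512, 6279, 2766, 3700, 2103, 952 and 271 CPM over the 8 stages, listed in order from BFU-E to ERY-VI. Of the 39 members, 24 had their highest mean in CFU-E and 10 in BFU-E, and the other 5 peaked later (2 in ERY-I, 2 in ERY-III and 1, Xpo7, in ERY-IV). The order was like in WT cells of the knockout series, where 26 members peaked in CFU-E and 5 in BFU-E, and in GS-KO cells, where 30 peaked in CFU-E and 3 in BFU-E. With haemoglobin counts left out of the total, the sum without Xpo7 over the first 6 stages was still 7573, 8514, 6540, 3842, 4833 and 3026 CPM.

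Nucleoporins, importins and the 5 exportins other than Xpo7 went down the series side by side. From BFU-E to ERY-VI the 22 nucleoporins summed to 3541, 4005, 3132, 1365, 1834, 1088, 486 and 88.7 CPM. The 14 importins gave 2922, 3140, 2214, 924, 1272, 674, 346 and 158 CPM in the same order of stages. The exportins without Xpo7 gave 1110, 1367, 933, 477, 594, 341, 119 and 25.0 CPM. As means, all 3 sums were higher in CFU-E than in BFU-E and higher in ERY-III than in ERY-II. The BFU-E libraries are all Y-linked, whereas CFU-E replicates 4 and 5 are of the Xist set. Those 2 had importin sums of 2825 and 2543 CPM, below the BFU-E libraries (2888 to 2951 CPM). Their nucleoporin sums were 3527 and 3571 CPM, against 3532 to 3555 CPM in BFU-E. Their exportin sums without Xpo7, 1461 and 1199 CPM, lay above those of BFU-E (1097 to 1130 CPM). Xpo7 ran the other way: its share of the members' counts was 0.586%, 0.235%, 7.26%, 52.3%, 32.9%, 77.6%, 86.4% and 72.2% over those stages.

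**Figure D2:**
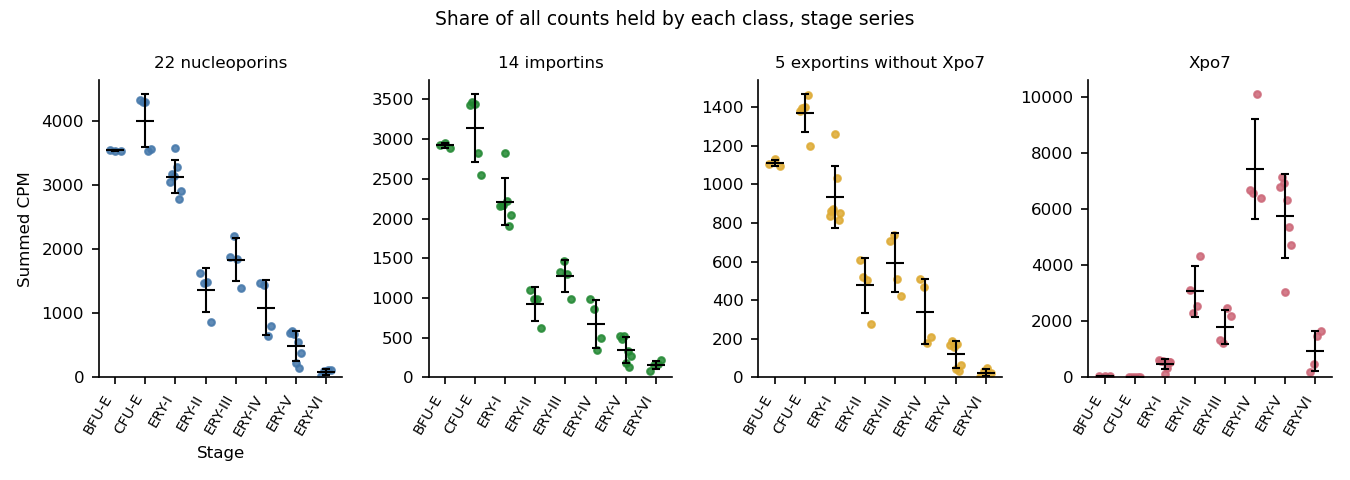
Summed level in CPM of the nucleoporins, the importins, the exportins without Xpo7, and Xpo7 itself, by stage, with 1 point for each library and the mean ± SD beside the points. The means of the first 3 sums are highest in CFU-E, at 4005, 3140 and 1367 CPM, whereas Xpo7 is highest in ERY-IV with a mean of 7447 CPM. In CFU-E replicates 4 and 5, of the Xist set, the importin sums lie below every BFU-E library.

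The members differed in how much of their early level the late cells kept. Of the 38 members with at least 5 CPM in BFU-E, the median kept 20.8% of its BFU-E level by ERY-IV, 8.58% by ERY-V and 1.33% by ERY-VI. These shares are of CPM, and the same shares were not computed for all genes. Xpo7 was the only one above its BFU-E level in ERY-IV, and 4 others kept over 50% there: Kpna1 97.3%, Nup153 89.2%, Nup50 72.4% and Xpo1 60.8%. Kpna1 is an importin alpha, Nup153 and Nup50 form the nuclear basket on the inner face of the pore, and Xpo1 (CRM1) is the general exporter of proteins with a leucine-rich signal. At the other end 9 members were under 10%: Nup37 1.76%, Ipo8 2.14%, Ipo4 3.05%, Nup93 5.50%, Xpo6 5.51%, Nup54 8.02%, Ipo5 8.69%, Xpo5 8.78% and Ipo7 9.21%. Xpo7 and Kpna1 (109%) were the members above their BFU-E level by ERY-V, and Xpo7 alone by ERY-VI.

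Each step of the series was tested on raw counts with edgeR's quasi-likelihood test over all genes kept by a filter on low counts, and a gene is called where the Benjamini-Hochberg adjusted p lies under 0.05. The fit scales libraries by trimmed mean of M-values (TMM), so that its log2 fold change is relative to the bulk of the genes, whereas CPM are relative to all counts. The haemoglobin share of all counts, given above, was larger in ERY-II and ERY-VI than in CFU-E. Shares of other abundant genes were not counted. With plain library totals in place of TMM, the median log2 fold change of all genes tested moved to -0.14 from -0.01 for CFU-E over BFU-E, to -0.31 from 0.05 for ERY-I over CFU-E, to -1.67 from -0.35 for ERY-II over ERY-I and to -2.22 from -0.34 for ERY-VI over ERY-V. Fold changes below are relative to that bulk unless library totals are named.

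Between CFU-E and BFU-E, the calls among pore genes lay mostly on the side of CFU-E. Of 39 members tested, 16 rose and 2 fell in CFU-E (median log2 fold change 0.24, against -0.01 for all 10807 genes), while 18.2% of all genes rose and 19.1% fell. The nucleoporins made up 12 of the 16, with 20 tested and none called lower. Importins gave 2 higher and 1 lower of 13, and exportins 2 higher and 1 lower of 6. With library totals 12 rose and 2 fell, against 13.3% and 22.1% of all genes. Within the Y-linked set, the only one with BFU-E libraries, 32 rose and 2 fell, against 33.0% and 34.5% of all genes. A single fit of all 8 groups called no member here and 1.69% of all genes higher and 1.52% lower, and no member was called with the Y-linked libraries summed into 1 per group, where 0.252% of all genes were higher and 0.601% lower.

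The members called higher in CFU-E lay in the scaffold of the pore and also outside it. Of the central channel, the cytoplasmic face and the nuclear basket, 1 of 2 members each was called higher. In WT cells of the knockout series 2 of 2 were called higher in each of these places. The symbol rule leaves out some subunits of the Y complex, the outer scaffold, and all 6 members placed in it here were called higher. Their log2 fold changes were 0.88 ± 0.17 (SE) for Nup43, 0.64 ± 0.09 for Nup160, 0.58 ± 0.11 for Nup85, 0.57 ± 0.11 for Nup133, 0.45 ± 0.13 for Nup37 and 0.42 ± 0.10 for Nup107. The CFU-E and BFU-E libraries overlapped for Nup107. Nup160, for one, had 226, 211, 211, 205 and 195 CPM in CFU-E, against 142, 147 and 154 CPM in BFU-E. Of 5 inner ring members 3 rose, namely Nup35, Nup155 and Nup205, and the overlap of libraries was again present for Nup205. Leaving out any BFU-E library ended the calls of Nup35, Nup107 and Ipo4, and library totals ended those of Nup35 (adjusted p = 0.051, edgeR) and Nup107 (adjusted p = 0.10, edgeR).

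Among the receptors Kpna2, an importin alpha known to be abundant in dividing cells, gained most in CFU-E. It had 101, 108, 108, 118 and 104 CPM in CFU-E, against 57.0, 63.6 and 54.7 CPM in BFU-E, a log2 fold change of 1.02 ± 0.12 (adjusted p = 0.00036, edgeR). Xpo1 reached 647, 643, 640, 884 and 670 CPM in CFU-E, against 426, 438 and 422 CPM in BFU-E, with a log2 fold change of 0.84 ± 0.17 (adjusted p = 0.0047, edgeR). In both genes every CFU-E library lay above every BFU-E library. Kpna3 (0.74 ± 0.16) and Xpo4 (0.60 ± 0.10), an exporter of the translation factor eIF5A, also rose. The 2 members called lower were Ipo4, an importer of histones, at -0.40 ± 0.11, and Xpo7 at -1.0 ± 0.26.

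The same step in WT cells of the knockout series gave narrower errors and more calls. There 33 of 39 members rose and 3 fell in WT CFU-E relative to WT BFU-E, against a background of 34.5% and 36.0% of all genes. Nucleoporins were 19 higher and none lower of 20, importins 10 and 1 of 13, and exportins 4 and 2 of 6. All 18 members called in the stage series were among the 36 called in WT cells, with the same sign. As 36 of 39 members were called in WT cells, 33 of them higher, most of this overlap was fixed beforehand. The same overlap over all genes was not counted. Kpna2 (0.71 ± 0.05), Xpo4 (0.68 ± 0.04), Kpna3 (0.65 ± 0.03), Xpo1 (0.47 ± 0.02) and Kpnb1 (0.34 ± 0.02), the importin beta that carries importin alpha and its cargo, were called higher, with library totals too. Nup210 was also called higher, but at -0.0105 with library totals.

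From CFU-E to ERY-I the calls turned downwards. In ERY-I relative to CFU-E 6 members rose and 12 fell of 39 (median -0.19, against 0.05 for all genes), while 25.4% of all genes rose and 20.9% fell, and with library totals 3 rose and 24 fell, against 16.1% and 34.1% of all genes. The counts were unlike in the 2 library sets: within the Y-linked set 4 rose and 30 fell, against 41.1% and 38.1% of all genes, and within the Xist set 12 rose and 4 fell, against 22.9% and 19.4%. The neutrophil marker sums given above also differed between the sets, and their part in these counts was not tested. Of the members named next Nup153 and Nup50 changed sign between the sets, and Ipo5, Ipo7, Nup93 and Xpo5 were called in the Y-linked set but not in the Xist set.

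Xpot and Xpo5, which carry RNA, went down in ERY-I. Xpot, the exporter of transfer RNA, had 80.4, 90.2 and 124 CPM (lowest, median and highest) in ERY-I, against 225, 235, 234, 221 and 188 CPM in CFU-E, with a log2 fold change of -0.87 ± 0.11 (adjusted p = 0.00011, edgeR). Xpo5, which exports precursors of microRNA, fell by 0.81 on the log2 scale (SE 0.15), with -0.59 and no call within the Xist set (adjusted p = 0.064, edgeR). No ERY-I library reached the lowest CFU-E library in either gene. In the knockout series WT ERY-I-II cells had 63.9, 68.9 and 62.9 CPM of Xpot, against 265, 258 and 264 CPM in WT CFU-E.

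Among the importins Ipo4 fell most. It had 12.1, 27.9 and 37.4 CPM (lowest, median and highest) in ERY-I, against 77.2, 80.6, 84.0, 61.2 and 61.0 CPM in CFU-E, with a log2 fold change of -1.23 ± 0.18 (adjusted p = 0.00021, edgeR). Ipo5 (-0.46 ± 0.14) and Ipo7 (-0.43 ± 0.12), importers known for ribosomal proteins and histones, were called lower over all libraries and within the Y-linked set (-0.91 and -0.75), but not within the Xist set, where they stood at -0.10 (adjusted p = 0.66, edgeR) and -0.26 (adjusted p = 0.28, edgeR). Kpnb1 (0.03 ± 0.17) and Ipo9 (0.40 ± 0.17) were not called, and Ipo9 was called higher in WT ERY-I-II over WT CFU-E, at 0.13 with library totals. Among the nucleoporins Nup37 of the Y complex (-1.21 ± 0.15) and Nup54 of the central channel (-0.85 ± 0.12) fell most, and Nup93 (-0.61 ± 0.10) followed, with -0.45 and no call within the Xist set (adjusted p = 0.051, edgeR). Nup54, whose promoter is printed above, had 30.2, 52.0 and 60.9 CPM (lowest, median and highest) in ERY-I, against 110, 111, 113, 127 and 80.8 CPM in CFU-E.

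A few members rose in ERY-I besides Xpo7. Nup210, a membrane-spanning nucleoporin, had 533, 577 and 616 CPM (lowest, median and highest) in ERY-I, against 494, 514, 512, 343 and 406 CPM in CFU-E, with a log2 fold change of 0.74 ± 0.14 (adjusted p = 0.0012, edgeR), or 0.34 with library totals. Kpna2 rose by 0.65 ± 0.09, although its ERY-I libraries (107 to 147 CPM) overlapped those of CFU-E (101 to 118 CPM). Nup153 (0.46 ± 0.17) and Nup50 (0.37 ± 0.14) were called higher, yet within the Y-linked set they stood at -0.15 and -0.016, and with library totals over both sets at 0.05 (not called) and -0.024. Both calls, and that of Ipo13, were also lost when single libraries were left out. In WT cells of the knockout series, ERY-I-II against CFU-E gave 0.97 ± 0.02 for Nup210, 1.07 ± 0.04 for Kpna2 and 0.63 ± 0.03 for Nup50, all 3 called higher.

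At the next step, ERY-II relative to ERY-I, 8 members rose and 14 fell of 39 (median -0.27, against -0.35 for all genes), with 20.2% of all genes higher and 25.1% lower. With library totals 1 rose, Xpo7, and 33 fell, against 4.12% and 67.7% of all genes. Within the Xist set, the only one with ERY-II libraries, 6 rose and 12 fell, against 22.5% and 23.8% of all genes. Among the members that fell were Ipo8 (-1.88 ± 0.23), Nup54 (-1.51 ± 0.21), Ipo5 (-1.13 ± 0.15), Nup93 (-1.04 ± 0.15) and Nup188 (-0.86 ± 0.15). Nup54 had 11.4, 7.71, 4.37 and 3.68 CPM in ERY-II, and Ipo8 had 9.87, 10.6, 5.47 and 2.63 CPM there, against at least 30.2 and 37.8 CPM in every ERY-I library.

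Several members were called higher in ERY-II relative to the bulk of genes although their CPM barely differed or were lower. Kpna1 had 162, 170, 173 and 153 CPM in ERY-II, against 122, 140 and 151 CPM (lowest, median and highest) in ERY-I, with a log2 fold change of 1.61 ± 0.20 (adjusted p = 0.00013, edgeR) and 0.24, not called, with library totals. Nup153 (1.10 ± 0.16), Kpna2 (0.81 ± 0.15), Nup50 (0.60 ± 0.16), Xpo1 (0.59 ± 0.20) and Kpna4 (0.48 ± 0.13) were called higher too, but with library totals these 5 stood at -0.23, -0.50, -0.73, -0.69 and -0.90. Leaving out any ERY-II library ended the call of Xpo1, as did taking the Xist set alone (0.34, adjusted p = 0.076, edgeR). Kpnb1 (0.31 ± 0.18, adjusted p = 0.19 in edgeR) and Nup210 (0.29 ± 0.13, adjusted p = 0.097 in edgeR) were not called.

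**Figure D3:**
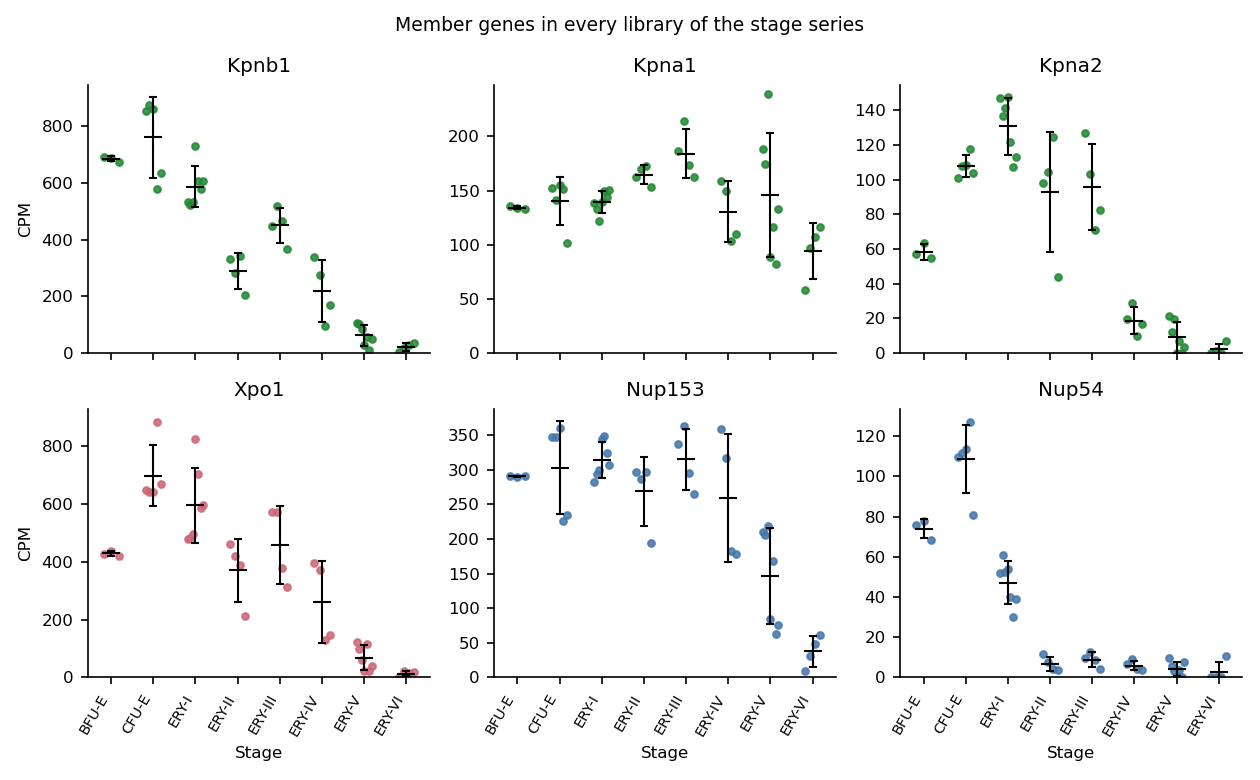
Level in CPM of Kpnb1, Kpna1, Kpna2, Xpo1, Nup153 and Nup54 by stage, 1 point for each library, with mean ± SD. Kpna1 stays between 82.2 and 239 CPM in all libraries up to ERY-V, Nup54 is at most 12.9 CPM from ERY-II on, and Kpna2 at most 28.7 CPM in the 4 ERY-IV libraries.

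Between ERY-III and ERY-II no member was called, and 0.185% of all genes were higher and 0.0% lower in ERY-III. The count of 0 is from edgeR's quasi-likelihood test on 4 libraries each. DESeq2 called 2 members higher and 0 lower, against 143 higher and 72 lower of all 7574 genes. In edgeR's test 11 of 38 members had an unadjusted p under 0.05, all 11 higher in ERY-III. The share of all genes under that unadjusted limit was not counted, so the 11 cannot be set against it. With the replicate number as a block, since same-numbered libraries deviated together at this step, 8 members were called higher and 1 lower, against 4.86% and 5.41% of all genes.

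In ERY-IV relative to ERY-III 1 member rose, Xpo7, and 2 fell, of 37 (median -0.44, against -0.07 for all genes), with 10.3% of all genes higher and 3.29% lower. With the replicate block, since same-numbered libraries deviated together here too, 2 rose and 8 fell, against 16.1% and 9.08% of all genes. Kpna2 fell to 19.5, 28.7, 9.79 and 16.9 CPM in ERY-IV, against 127, 103, 70.7 and 82.5 CPM in ERY-III, a log2 fold change of -1.82 ± 0.24 (adjusted p = 0.0017, edgeR). Its ERY-IV libraries all lay below its ERY-III libraries. Nup98, a nucleoporin of the transport channel, fell by 0.71 on the log2 scale (SE 0.21, adjusted p = 0.049 in edgeR), a call lost without any ERY-III library, without ERY-IV replicate 3 or 4, and with library totals.

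The last steps gave few calls. In ERY-V relative to ERY-IV 1 member rose and 2 fell of 37, with 6.49% of all genes higher and 2.33% lower, and library totals gave none higher and 3 lower, against 0.758% and 5.26% of all genes. Of 9 neutrophil markers 7 were called higher at this step (median log2 fold change 5.99), with sums of 1.01 to 3439 CPM in ERY-V, against 1.86 to 186 CPM in ERY-IV, and their part in the members' differences was not tested. Xpo1 had 22.2, 61.9 and 121 CPM (lowest, median and highest) in ERY-V, against 396, 370, 130 and 147 CPM in ERY-IV, a log2 fold change of -1.11 ± 0.27 (adjusted p = 0.022, edgeR), with no overlap between the groups but no call within the Xist set (-1.07, adjusted p = 0.071, edgeR). Kpnb1 fell by 1.03 on the log2 scale (SE 0.28) and stood at -1.18 with no call within the Xist set (adjusted p = 0.06, edgeR). Kpna1 rose by 1.05 ± 0.26, but was at 0.16, not called, with library totals, and the libraries of ERY-V and ERY-IV overlapped for both genes. No member was called at this step without ERY-IV replicate 1, or without replicate 2, and 1 without replicate 4. In ERY-VI relative to ERY-V Kpna1 alone was called, at 1.14 ± 0.28 but -0.63 with library totals, of 31 members tested, with 3.32% of all genes higher and 4.51% lower. Library totals gave none higher and 10 lower there, against 0.139% and 43.6% of all genes. The call of Kpna1 was lost within the Xist set, and without ERY-VI replicate 2 (adjusted p = 0.054, edgeR) or 3 (adjusted p = 0.059, edgeR), and 2 members were called without ERY-V replicate 6 or ERY-VI replicate 4.

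Xpo7 is described on its own because no other member moved by as much. The gene lies at chr14:70662126-70770864 on the minus strand (GRCm38.p6), with 15.7 kb of annotated exon. It had 41.9, 46.1 and 45.8 CPM in BFU-E and 26.5, 22.3, 23.3, 9.24 and 20.004 CPM in CFU-E. In ERY-I it had 106, 569 and 609 CPM (lowest, median and highest), and in ERY-II 3123, 2288, 2559 and 4330 CPM. No library of ERY-I or ERY-II reached down to the level of the stage before.

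The level in ERY-III was 1354, 1225, 2474 and 2178 CPM, and in ERY-IV 6711, 6572, 10116 and 6391 CPM. ERY-V libraries had 3039, 6340 and 7163 CPM (lowest, median and highest), and ERY-VI libraries 179, 475, 1469 and 1659 CPM. In exon length units Xpo7 ranked 38 of 41 members in BFU-E and in CFU-E, 16 in ERY-I and 1 in every later stage, and its mean of 475 CPM per kb in ERY-IV was rank 70 among 22706 genes.

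The tests on Xpo7 gave a log2 fold change of -1.0 ± 0.26 in CFU-E over BFU-E (adjusted p = 0.015, edgeR), a call lost when any BFU-E library was left out, with adjusted p between 0.051 and 0.059. ERY-I over CFU-E gave 4.98 ± 0.49 (31.5-fold, adjusted p = 2.2e-05, edgeR), with 4.74 within the Y-linked set and 5.26 within the Xist set. ERY-II over ERY-I gave 4.15 ± 0.50 (17.8-fold, adjusted p = 0.00011, edgeR), or 2.68 with library totals. These gains were the largest of the 39 members tested at either step.

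Later steps of Xpo7 were called once. ERY-III over ERY-II gave -1.01 ± 0.45 (adjusted p = 0.40, edgeR), which was not called. ERY-IV over ERY-III gave 2.66 ± 0.45 (6.33-fold, adjusted p = 0.0047, edgeR), or 2.04 with library totals. ERY-V over ERY-IV (0.50, adjusted p = 0.49) and ERY-VI over ERY-V (-1.08, adjusted p = 0.091) did not pass in edgeR's test. WT cells of the knockout series gave -0.92 ± 0.09 for CFU-E over BFU-E, 4.84 ± 0.05 for ERY-I-II over CFU-E, 3.70 ± 0.02 for ERY-III-VI over ERY-I-II and 2.07 ± 0.02 for ERY-V-VI over ERY-III-VI, with 4.41, 2.98 and 0.92 for the last 3 with library totals.

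**Figure D4:**
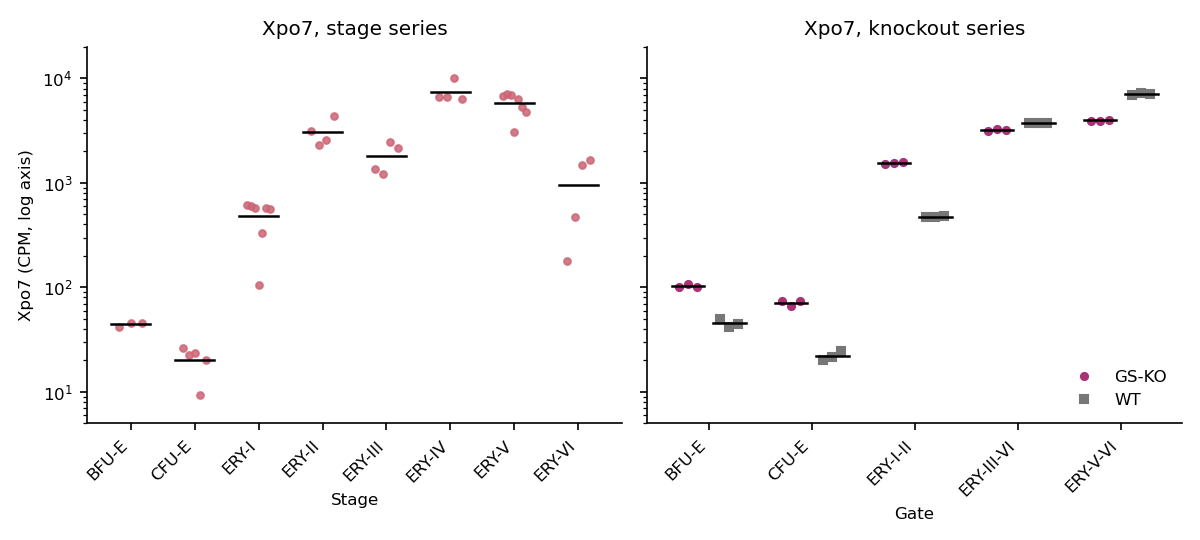
Level of Xpo7 in CPM on a log axis, 1 point for each library, with a black line at the mean: the 8 stages on the left, and GS-KO beside WT in the 5 gates on the right. The stage means run from 20.3 CPM in CFU-E to 7447 CPM in ERY-IV, and GS-KO points lie above WT points in the first 3 gates and below them in the last 2.

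The other late steps of WT cells held more calls than their counterparts in the stage series. WT ERY-I-II over WT CFU-E gave 16 higher and 18 lower of 39 (median -0.04, against -0.03 for all genes), with 39.9% and 41.9% of all genes, and library totals gave 5 and 31, against 24.2% and 60.9%. Among the falls were those of Ipo4 (-1.57 ± 0.08), Xpot (-1.56 ± 0.04), Nup37 (-1.45 ± 0.13), Xpo5 (-0.95 ± 0.04), Xpo6 (-0.74 ± 0.05), an exporter of profilin with actin, and Ipo8 (-0.69 ± 0.05). The first 4 of these also fell in ERY-I relative to CFU-E. Nup153, Nup98 and Xpo1 were called higher but stood at -0.070, -0.10 and -0.27 with library totals.

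WT ERY-III-VI over WT ERY-I-II gave 13 higher and 13 lower of 38, with 35.3% and 38.1% of all genes, and library totals gave 3 and 32, against 14.3% and 69.5%. Kpna1 (1.13 ± 0.05) and Nup153 (1.03 ± 0.03) rose, with 0.41 and 0.31 with library totals. Kpna4 was called higher too (0.81 ± 0.07), with overlapping libraries, but stood at 0.09 and was not called with library totals (adjusted p = 0.21, edgeR). Nup210, Xpo1, Kpnb1 and Nup98 were called higher but stood at -0.16, -0.17, -0.20 and -0.42 with library totals. Nup37 (-1.52 ± 0.29), Ipo8 (-1.20 ± 0.11) and Nup93 (-0.85 ± 0.08) fell.

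WT ERY-V-VI over WT ERY-III-VI gave 5 higher and 14 lower of 38 (median -0.33, against -0.01 for all genes), with 18.4% and 12.9% of all genes, and library totals gave 1 and 35, against 5.03% and 67.7%. Besides Xpo7, Kpna1 rose by 1.30 ± 0.06, or 0.14, not called, with library totals. Xpo4, Kpna4 and Nup153 were called higher and stood at -0.52, -0.63 and -0.81 with library totals, and the calls of Kpna4 and Nup153 were lost when single libraries were left out. Kpna2 (-1.02 ± 0.18), Nup88 (-0.92 ± 0.13) on the cytoplasmic face, Xpo5 (-0.81 ± 0.19) and Nup98 (-0.58 ± 0.09) fell.

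In the knockout series Glul, the gene of glutamine synthetase, was lower in GS-KO than in WT libraries of every gate. It had 98.8 ± 2.41 CPM in GS-KO and 122 ± 2.91 CPM in WT BFU-E (SD, n = 3 each), and 36.0 ± 1.39 in GS-KO against 86.0 ± 3.16 in WT CFU-E. In ERY-I-II it had 14.9 ± 1.92 in GS-KO against 110 ± 5.02 in WT, in ERY-III-VI 19.2 ± 2.91 in GS-KO against 159 ± 7.44 in WT, and in ERY-V-VI 23.3 ± 0.882 in GS-KO against 254 ± 12.2 in WT. Neutrophil markers differed between the genotypes in every gate: their sum averaged 7083 CPM in GS-KO and 31.3 in WT BFU-E, 4368 in GS-KO and 27.9 in WT CFU-E, 6244 in GS-KO and 112 in WT ERY-I-II, 9978 in GS-KO and 254 in WT ERY-III-VI, and 13480 in GS-KO and 637 in WT ERY-V-VI. All 9 neutrophil markers were called higher in GS-KO in all 5 gates, and macrophage and B cell marker sums were also higher. Of 10 erythroid markers 7 were called higher and 3 lower in GS-KO BFU-E, 5 and 4 in CFU-E, 7 and 2 in ERY-I-II, 2 and 7 in ERY-III-VI, and 0 and 10 in ERY-V-VI. Their sum averaged 1858 CPM in GS-KO and 846 CPM in WT BFU-E, 2191 in GS-KO and 1593 in WT CFU-E, 43014 in GS-KO and 25170 in WT ERY-I-II, 76135 in GS-KO and 71402 in WT ERY-III-VI, and 94203 in GS-KO and 217781 in WT ERY-V-VI. The part of these markers in the members' differences, Xpo7 included, was not tested.

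Xpo7 had the largest log2 fold change between the genotypes among the members tested in each gate except ERY-III-VI, and its direction was opposite early and late. In BFU-E it had 99.9, 107 and 101 CPM in GS-KO, against 49.4, 42.1 and 44.7 CPM in WT. In CFU-E it had 73.4, 66.9 and 74.1 CPM in GS-KO, against 20.2, 21.5 and 24.8 CPM in WT. In ERY-I-II it had 1506, 1545 and 1576 CPM in GS-KO, against 470, 472 and 477 CPM in WT. GS-KO libraries lay above WT libraries in all 3 gates, and the fits gave 1.19 ± 0.07 (2.29-fold, adjusted p = 8.6e-21), 1.68 ± 0.08 (3.21-fold, adjusted p = 1.1e-17) and 1.82 ± 0.02 (3.54-fold, adjusted p = 4.1e-66) in edgeR's quasi-likelihood test.

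In the later gates the order turned. Xpo7 had 3157, 3268 and 3187 CPM in GS-KO ERY-III-VI, against 3755, 3722 and 3745 CPM in WT ERY-III-VI. In ERY-V-VI it had 3934, 3954 and 4035 CPM in GS-KO, against 6879, 7274 and 7052 CPM in WT. Both differences were called lower, at -0.38 ± 0.02 (0.767-fold, adjusted p = 1.2e-22) and -2.12 ± 0.02 (0.229-fold, adjusted p = 2e-19) in edgeR's test, and at -0.22 and -0.83 with library totals. Of the members' counts Xpo7 took 1.28% in GS-KO and 0.544% in WT BFU-E, 19.997% in GS-KO and 6.24% in WT ERY-I-II, and 47.5% in GS-KO and 76.7% in WT ERY-V-VI. A test of whether the genotype difference varied between the 5 gates gave an adjusted p of 4.4e-56 for Xpo7 (edgeR), and 33 of 39 members passed that test, against a background of 61.2% of all genes.

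**Figure D5:**
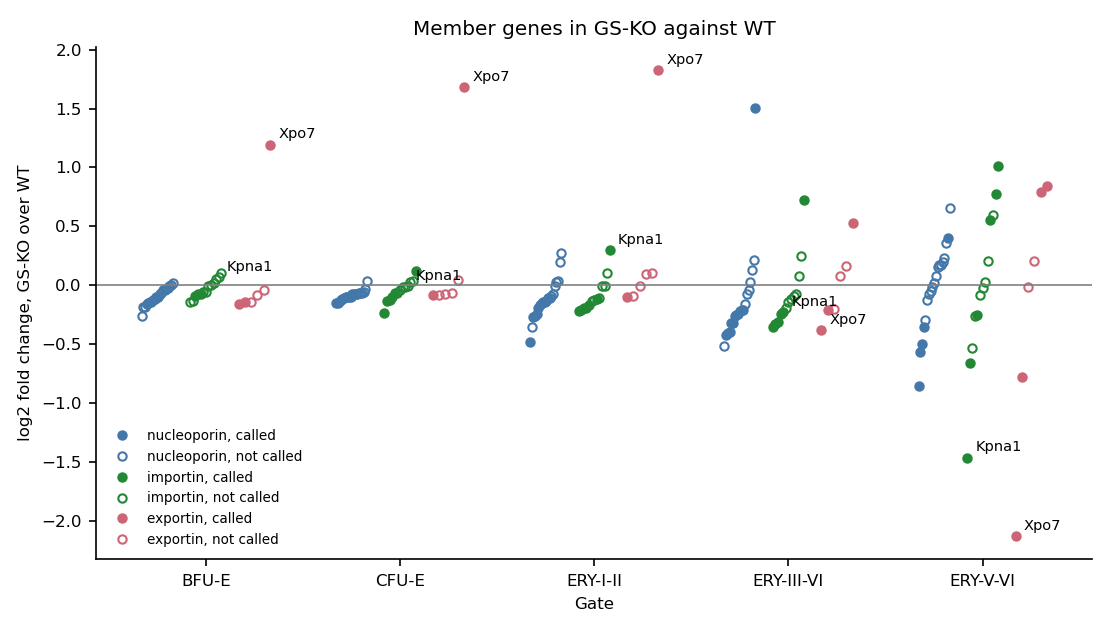
Log2 fold change of GS-KO over WT for each member tested, in the 5 gates, by class, relative to the bulk of genes. Filled points are called at an adjusted p under 0.05, and Xpo7 and Kpna1 are labelled: Xpo7 runs from 1.19 in BFU-E and 1.82 in ERY-I-II to -2.12 in ERY-V-VI.

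The other members moved little in the first 3 gates, and mostly down. In BFU-E, Xpo7 rose and 9 members fell of 39, with 15.4% of all genes higher and 8.59% lower. Those 9 had log2 fold changes between -0.16 and -0.07, and included Xpot (-0.16 ± 0.04), Xpo5 (-0.14 ± 0.04) and Nup205 (-0.14 ± 0.03). Xpot had 226, 217 and 228 CPM in GS-KO BFU-E, against 245, 254 and 255 CPM in WT BFU-E, without overlap. Without WT replicate 1 the count was 6.

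In CFU-E 2 rose and 15 fell of 39, with 17.9% of all genes higher and 11.5% lower, and nucleoporins gave 9 of the falls. Kpna2 (-0.23 ± 0.05) was the largest of these, followed by Nup93 and Nup155 (-0.15 ± 0.03), while Kpna4 stood at 0.12 ± 0.04, a call lost when single libraries were left out. In ERY-I-II 2 rose and 17 fell of 39, with 22.9% of all genes higher and 17.5% lower. The 17 comprised 10 of 20 nucleoporins, among them all 5 of the inner ring, although the call of Nup35 was lost when single libraries were left out. Nup205 (-0.27 ± 0.04), Ipo9 (-0.22 ± 0.04), an importer of histones, and Kpna2 (-0.21 ± 0.05) fell, and Kpna1 rose by 0.30 ± 0.05 (adjusted p = 8.1e-07, edgeR). Ipo9 had 179, 180 and 184 CPM in GS-KO ERY-I-II, against 224, 228 and 235 CPM in WT ERY-I-II.

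In ERY-III-VI 3 members rose and 18 fell of 38 (median -0.20, against 0.05 for all genes), with 31.4% of all genes higher and 24.5% lower, whereas library totals gave 9 and 9, against 39.5% and 13.5% of all genes. The nuclear basket fell, with Nup153 at -0.40 ± 0.04 (adjusted p = 1.3e-14, edgeR) and Nup50 at -0.40 ± 0.04. Nup153 had 362, 368 and 384 CPM in GS-KO, against 439, 451 and 425 CPM in WT. Nup188 (-0.42 ± 0.06), Nup98 (-0.32 ± 0.04), Nup210 (-0.32 ± 0.03), Kpnb1 (-0.24 ± 0.03) and Xpo1 (-0.21 ± 0.03) were also called lower, but with library totals Kpnb1 stood at -0.085 and Xpo1 at -0.054, which was not called (adjusted p = 0.16, edgeR). Among those called higher were Nup37, with 5.67, 8.96 and 4.87 CPM in GS-KO against 2.09, 1.67 and 2.39 CPM in WT, Ipo8 (0.72 ± 0.13) and Xpot (0.53 ± 0.11).

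In ERY-V-VI the counts of calls depended on the scaling. Relative to the bulk of genes 6 rose and 9 fell of 38 (median 0.00, against 0.15 for all genes), with 22.4% of all genes higher and 20.5% lower, whereas with library totals 34 rose and 2 fell, against 76.7% and 3.87% of all genes, and the median of all genes was 1.44. Summed CPM were 2221 in GS-KO and 1099 in WT for nucleoporins, 1538 in GS-KO and 788 in WT for importins, and 639 in GS-KO and 257 in WT for exportins without Xpo7. GS-KO libraries had a count for 13804 genes on average, against 10463 in WT, and haemoglobin took 7.77% of GS-KO counts, against 19.7% in WT.

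Of 14 members named as called in ERY-V-VI, 8 kept their direction with library totals and 6 did not. Besides Xpo7, Kpna1 fell by 1.46 on the log2 scale (SE 0.07, adjusted p = 5.7e-11 in edgeR), and stood at -0.17 with library totals, with 205, 195 and 209 CPM in GS-KO against 233, 216 and 234 CPM in WT. Kpna2 rose by 0.77 ± 0.20 (adjusted p = 0.0055, edgeR), or 2.06 with library totals, with 107, 104 and 90.7 CPM in GS-KO against 19.2, 19.2 and 32.8 CPM in WT. Ipo8 (1.01 ± 0.32), Xpo5 (0.84 ± 0.22), Xpo6 (0.79 ± 0.25), Ipo7 (0.55 ± 0.13) and Nup88 (0.40 ± 0.15) were called higher as well, and all but Ipo7 lost the call when single libraries were left out. Nup153, Xpo4, Kpna4, Nup210, Nup50 and Kpnb1 were called lower but stood at 0.44, 0.52, 0.64, 0.80, 0.94 and 1.04 with library totals. Kpnb1, for one, had 401, 417 and 396 CPM in GS-KO, against 193, 209 and 190 CPM in WT.

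After Xpo7 the members whose genotype difference varied most between gates were Kpna1 (adjusted p = 1.3e-27), Nup210 (1.1e-16), Nup153 (2e-16), Nup50 (3.5e-13) and Kpnb1 (1.1e-11) in edgeR's interaction test. The log2 fold changes of Kpna1, GS-KO over WT, were 0.07, -0.01, 0.30, -0.23 and -1.46 from the BFU-E gate to the ERY-V-VI gate. The 6 members not called were Nup93, Ipo4, Ipo11, Nup43, Nup35 and Nup54.

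The members were also grouped by place in the pore, and differences between these small groups were not tested. Of all genes 18.2% were called higher and 19.1% lower in CFU-E relative to BFU-E. The shares were 25.4% and 20.9% in ERY-I relative to CFU-E, and 20.2% and 25.1% in ERY-II relative to ERY-I. The nuclear basket (Nup153 and Nup50) was called higher at 2 of 2 in ERY-I and in ERY-II, with the reservations on scaling and library set given above, and kept 72.4% to 89.2% of its BFU-E level in ERY-IV. The members placed in the Y complex had 6 of 6 higher in CFU-E, 2 of 6 lower in ERY-I and 3 of 6 lower in ERY-II. They stood at 1.76% to 40.4% of BFU-E in ERY-IV. The inner ring (Nup93, Nup155, Nup188, Nup205 and Nup35) had 3 of 5 higher in CFU-E, 3 lower in ERY-I and 4 lower in ERY-II, and stood at 5.50% to 31.2% in ERY-IV. The 5 importin alpha members above 1 CPM stood at 26.9% to 97.3% of BFU-E in ERY-IV. In ERY-II 3 of them were called higher (Kpna1, Kpna2 and Kpna4, with the reservations on library totals given above) and 1 lower. The 7 Ipo members stood at 2.14% to 44.8% of BFU-E in ERY-IV, with 1 higher and 4 lower in ERY-II.

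Other genes of the pathway, outside the symbol rule, give the setting. Of 7 genes of the Ran cycle tested 4 rose and none fell in CFU-E relative to BFU-E (18.2% and 19.1% of all genes), among them Ran itself (1.25 ± 0.33) and its binding protein Ranbp1. In ERY-II relative to ERY-I Ranbp1 fell by 1.13 on the log2 scale. Of 15 messenger RNA export genes 5 rose in CFU-E, and 1 rose and 6 fell in ERY-I relative to CFU-E (25.4% and 20.9% of all genes), among them Thoc1 (-0.79). Of 12 nucleoporins with other names 4 rose in CFU-E and 4 fell in ERY-I, among them Ndc1 (0.71 in CFU-E over BFU-E and -0.87 in ERY-I over CFU-E), a membrane anchor of the pore. Tnpo1, an import receptor known as transportin, rose relative to the bulk of genes in ERY-IV over ERY-III (1.02 ± 0.19) and in ERY-V over ERY-IV (1.37 ± 0.31). Of 6 transport receptors with other names tested, 1 rose and 0 fell at each of these steps. The shares of all genes were 10.3% and 3.29%, then 6.49% and 2.33%. Of 13 nuclear lamina and envelope genes 1 rose and 3 fell in CFU-E relative to BFU-E. In ERY-I relative to CFU-E 10 of these 13 rose and 0 fell.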

How the data were processed

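Total RNA of flow-sorted mouse bone marrow cells was sequenced in 68 libraries, with a pico-input stranded kit per the labels' protocols. The authors deposited raw read counts per gene symbol in 2 tables, which were used as deposited, and no other column of per-sample values was present (0 left out). Per the submitters' processing notes the tools were STAR 2.5.2b and HTSeq, with build mm10. The annotation and the strand setting of the counting: not given in the sources used here.

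Members, gene lists and groupings by role were chosen with earlier results of these data known. Levels are CPM, counts divided by the library's total and multiplied by 1000000. Each comparison had its own fit of only its 2 groups, with edgeR 4.0.16 in R 4.3.3 (quasi-likelihood F test, TMM, filterByExpr with a minimum count of 10 and a minimum total of 15), and Benjamini-Hochberg adjustment over all genes tested, with a threshold of 0.05. The genotype-by-gate interaction was fitted over the 30 knockout libraries. Named members are 13 landmarks and, in each comparison, up to 6 called members per direction by adjusted p and up to 3 by fold change with at least 5 CPM and no overlap; the Y complex and inner ring members, and those named by their share of BFU-E levels, were added for their role or that share. Alternatives were DESeq2 1.42.0, other scalings and filters, a replicate block, 1 fit of all groups, single libraries left out, and subsets by library set. The replicate block used only libraries whose number was present in both groups. The fitting scripts were tested on simulated data.

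Same-numbered libraries deviated together (lowest correlation over 0.1) in ERY-I against CFU-E (0.30), where the numbers follow the library sets, in ERY-III against ERY-II (0.56) and in ERY-IV against ERY-III (0.32). Precision is limited by depth in late libraries, where many members had few counts, and by 3 to 7 libraries a group. Promoters are from RefSeq, build GRCm38.p6, and exon lengths from GENCODE vM21. Same-strand exon overlaps make Ipo4, Nup188, Nup62 and Xpo4 uncertain. Opposite-strand exon overlaps were present in 8 members: Ipo8, Ipo11, Kpnb1, Nup62, Nup88, Nup133, Nup188 and Nup214. As the strand setting of the counting is not given, their counts may be affected as well. Gene names, not transcript models, join the tables.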

Additional observations from a re-analysis of the deposited data

Results flagged for a closer look

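Single genes and class sums were examined in the stage series groups of 4 to 7 libraries, in 70 tests. Of these, 9 flagged a library far from the others. Chance flags about 1 in 20 tests, but these tests shared libraries, and Xpo7 is part of the exportin sum. They were thus not independent. In CFU-E, the lowest library of Kpna1 had 102 CPM (next 141), the highest of Xpo1 had 884 CPM (next 670), and the lowest exportin sum was 1220 CPM (next 1410). In ERY-I the highest library had 730 CPM of Kpnb1 (next 606) and an importin sum of 2830 CPM (next 2220). Nup153 had 194 CPM in its lowest ERY-II library (next 287). In ERY-IV the highest library had 10100 CPM of Xpo7 (next 6710) and an exportin sum of 10300 CPM (next 7220). The lowest nucleoporin sum in ERY-VI was 18.3 CPM (next 106).

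The difference of GS-KO from WT varied between the 5 gates by the interaction test for Xpo7 (adjusted p = 4.4e-56), Kpna1 (1.3e-27), Nup210 (1.1e-16), Nup153 (2e-16), Nup50 (3.5e-13) and Kpnb1 (1.1e-11), all with edgeR.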

How the results depend on the processing

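The number of members called (both directions together) moved by more than 1.5 times under these settings. The calls over all genes moved as well and are given beside each setting. With 1 fit of all groups the members' count was 0 for CFU-E over BFU-E (18 in the own fit), 4 for ERY-I over CFU-E (18), 5 for ERY-II over ERY-I (22), 1 for ERY-IV over ERY-III (3), 12 for ERY-V over ERY-IV (3), 14 for ERY-VI over ERY-V (1), 31 for WT ERY-V-VI over WT ERY-III-VI (19) and 33 for GS-KO over WT in ERY-III-VI (21). Of all genes that fit called 1.69%, 17.9%, 11.5%, 1.91%, 7.61%, 3.96%, 21.6% and 26.1% higher, in that order. It called 1.52%, 6.6%, 9.74%, 0.0423%, 11.5%, 24.3%, 23.3% and 31.9% lower. With library totals it was 34 for ERY-II over ERY-I, 10 for ERY-VI over ERY-V, 36 for WT ERY-V-VI over WT ERY-III-VI, and 31 in ERY-I-II (19) and 36 in ERY-V-VI (15) for GS-KO over WT. DESeq2 gave 2 for ERY-III over ERY-II (0), 4 for ERY-VI over ERY-V, and 6 in BFU-E (10) and 11 in CFU-E (17) for GS-KO over WT. Over all genes it called 143, 328, 1446 and 1478 higher and 72, 561, 594 and 811 lower. The genes tested were 7574, 5030, 11356 and 10859. With the replicate block, where the numbers pair libraries, the members' count was 9 for ERY-III over ERY-II and 10 for ERY-IV over ERY-III. Of all genes 4.86% and 16.1% were higher and 5.41% and 9.08% lower. Where libraries share only a number, the block gave 34 for CFU-E over BFU-E, 5 for ERY-V over ERY-IV and 0 for ERY-VI over ERY-V. Of all genes 33.3%, 7.96% and 5.18% were higher there, and 34.5%, 6.35% and 3.2% lower. In these 3 comparisons the block also left out libraries whose number was in 1 group only. For CFU-E over BFU-E it thus used the Y-linked libraries alone, as a setting below does. The block moved no other count by that much. Y-linked libraries alone gave 34 for CFU-E over BFU-E and 34 for ERY-I over CFU-E, and Xist libraries alone 1 for ERY-V over ERY-IV and 0 for ERY-VI over ERY-V. In that order 33.0%, 41.1%, 5.04% and 1.52% of all genes were higher, and 34.5%, 38.1%, 1.54% and 0.349% lower. With Y-linked libraries summed into 1 per group the members' count was 10, 1 and 0 for ERY-I over CFU-E, ERY-V over ERY-IV and ERY-VI over ERY-V. Of all genes 16.9%, 3.48% and 1.43% were higher there, and 13.5%, 1.23% and 0.387% lower. For CFU-E over BFU-E this setting left only 1 BFU-E library. The settings by library set also had fewer libraries, and the cause of these moves was not tested.

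Leaving out single libraries gave 12 to 22, 14 to 19, 18 to 22, 0 to 0, 2 to 4, 0 to 4 and 0 to 2 calls for the 7 steps of the stage series, 35 to 37, 32 to 34, 25 to 28 and 13 to 23 for the 4 WT steps, and 6 to 13, 14 to 18, 15 to 18, 18 to 24 and 10 to 16 for GS-KO over WT from BFU-E to ERY-V-VI. The interaction count, 33, ran from 31 to 36 and was 39 with library totals and 25 with DESeq2's size factors. Shares of all genes called in the fits of this paragraph are not given here, so these counts cannot be set against them. No single library reversed a named gene.

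Named genes changed sign in these cases. For ERY-I over CFU-E, Nup153 was -0.15 and Nup50 -0.016 in Y-linked libraries. All other reversals came with library totals: Nup50 -0.024 for ERY-I over CFU-E; Kpna2 -0.50, Kpna4 -0.90, Nup153 -0.23, Nup50 -0.73 and Xpo1 -0.69 for ERY-II over ERY-I; and Kpna1 -0.63 for ERY-VI over ERY-V. In WT cells they were Nup210 -0.0105 for CFU-E over BFU-E, Nup153 -0.070, Nup98 -0.10 and Xpo1 -0.27 for ERY-I-II over CFU-E, Kpnb1 -0.20, Nup210 -0.16, Nup98 -0.42 and Xpo1 -0.17 for ERY-III-VI over ERY-I-II, and Kpna4 -0.63, Nup153 -0.81 and Xpo4 -0.52 for ERY-V-VI over ERY-III-VI. For GS-KO over WT in ERY-V-VI they were Kpna4 0.64, Kpnb1 1.04, Nup153 0.44, Nup210 0.80, Nup50 0.94 and Xpo4 0.52.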
